A study of Arabidopsis thaliana with 8 samples.

Results

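The genes described here are 61 Arabidopsis thaliana genes whose transcripts were lower where the bzr1-1D allele was present, in seedlings with the PIF factors and in seedlings without them. They were chosen on the values themselves. Counts were scaled to counts per M gene counts (CPM; M, mega), averaged over the 2 libraries of a genotype, and 0.5 was added. A gene was taken when both ratios, bzr1-1D over Col-0 and pifq;bzr1-1D over pifq, were 0.5 or less and when Col-0 and pifq each averaged 5 CPM or more. The brassinosteroid synthesis genes DWF4, CPD, BR6OX1, BR6OX2, CYP90D1 and ROT3 and the symbols that start with PRP, COBL, EXPA, CHS, FLS or SAUR were left out. Of 33518 genes counted, 13939 reached the level in both genotypes and 66 met both ratios, and 5 of the 66 were left out by name. All 61 were among the 21221 genes that passed the filter on low counts and entered the tests. The members are BZR1-repressed by this rule alone: both ratios are a choice, not a finding, and binding of BZR1 was not measured here.

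RNA came from whole etiolated seedlings kept dark for 5 days. The medium of every genotype held BRZ, brassinazole, which blocks brassinosteroid synthesis. All lines are in the Col-0 ecotype. The genotypes were pifq;bzr1-1D, which carries the mutations of both parents below, bzr1-1D, a line with a dominant allele that keeps the BZR1 protein stable, pifq, a quadruple mutant without PIF1, PIF3, PIF4 and PIF5, and Col-0, the wild type, each with 2 libraries. No label states that replicate libraries were made from separate cultures, so a p-value here measures the spread between libraries, which may be technical. In such bulk samples, fewer cells of a type and less RNA per cell cannot be told apart.

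Brassinosteroids are plant steroid hormones that drive cell elongation. Their signal lets BZR1 accumulate in the nucleus, where it raises some genes and represses others, among them the genes for the hormone's own synthesis. BZR1 is known to bind the BRRE, with the letters CGTGTG or CGTGCG, and the G-box CACGTG. The PIFs are basic helix-loop-helix factors that also bind G-boxes, can act together with BZR1 and keep seedlings in the dark form of growth until light removes them. Genes that fall with bzr1-1D in both backgrounds therefore bear on what active BZR1 lowers when the 4 PIFs are absent.

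PIF1 had 18.3 to 20.8 CPM in pifq;bzr1-1D and 21.5 to 22.2 CPM in pifq, against 44.3 to 44.6 CPM in bzr1-1D and 47.2 to 47.9 CPM in Col-0. PIF3 and PIF5 were also lower in both pifq genotypes, while PIF4 was higher there, with 45.1 to 47.0 CPM in pifq;bzr1-1D and 25 to 25.8 CPM in pifq, against 13.1 to 14.8 CPM in bzr1-1D and 14.5 to 15.1 CPM in Col-0. Since counts are summed over a gene, reads from outside a mutated part would be included, and bzr1-1D alters the protein, so the genotypes are not checked by these levels. The libraries held between 16.1 and 34.4 M gene counts, and a count of 0 allows up to 3 counts, which is 0.0872 to 0.186 CPM. Such limits cover counting error only. SCR and SHR, regulators of root ground tissue, were read at 17.7 to 71.0 CPM in every library. Of the 10 seed markers, 10 were called higher in pifq;bzr1-1D than in bzr1-1D (edgeR adjusted p under 0.05), 4 higher and 6 lower in pifq against Col-0, and 9 were higher in pifq;bzr1-1D than in pifq and 7 lower in bzr1-1D than in Col-0, with summed levels of 80.4 to 83.3 CPM in pifq;bzr1-1D, 2.85 to 2.92 in bzr1-1D, 43.2 to 44.1 in pifq and 182 to 188 in Col-0, and SESA2 at 0 in both bzr1-1D libraries. Of all tested genes, 33.8% were called higher in the first of these comparisons and 32% higher and 30.5% lower in the second. In the third 28.1% were called higher and in the fourth 26.1% lower. The part of the seed markers in the members' values was not tested.

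Promoters of 5 members with a match are shown first, because BZR1 is known for binding such letters. They were picked for holding a match and do not stand for the members. The part of these letters in the members' fall was not tested. Each run holds the 250 bases before the gene's annotated start in RefSeq's TAIR10.1 sequence, 5′ to 3′ on the gene's own strand, with a match to a BRRE or G-box on either strand in capitals. The nuclear chromosome sequence of TAIR10.1 is the one carried over from TAIR9, the build named for the counts, with newer gene models. The run of AT3G51400 lies at chr3:19078956-19079205 on the minus strand and holds a G-box from position -96, counted back from the start. AT3G03270 (chr3:763370-763619, minus strand), AT5G50130 (chr5:20389665-20389914, plus strand), JAL22 (chr2:16416846-16417095, minus strand) and MLP43 (chr1:26726653-26726902, minus strand) hold a BRRE from positions -160, -62, -71 and -157, and in JAL22 and MLP43 it is read on the other strand as CACACG. AT3G04320, AT3G57010 and AT5G42825 hold a BRRE from positions -111, -61 and -129 and are not printed, the first pair because they fall outside the rule for named genes and AT5G42825 because its run includes exon sequence of AT5G42820.
AT3G51400: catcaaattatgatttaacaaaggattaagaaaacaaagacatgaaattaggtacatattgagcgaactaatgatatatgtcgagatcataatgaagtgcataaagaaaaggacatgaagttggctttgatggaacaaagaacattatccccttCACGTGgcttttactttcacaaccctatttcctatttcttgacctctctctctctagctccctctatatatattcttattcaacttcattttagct
AT3G03270: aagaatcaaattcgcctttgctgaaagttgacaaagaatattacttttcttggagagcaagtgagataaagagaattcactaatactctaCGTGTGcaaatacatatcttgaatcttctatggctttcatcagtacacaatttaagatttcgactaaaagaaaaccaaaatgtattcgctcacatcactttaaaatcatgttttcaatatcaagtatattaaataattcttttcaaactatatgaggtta
AT5G50130: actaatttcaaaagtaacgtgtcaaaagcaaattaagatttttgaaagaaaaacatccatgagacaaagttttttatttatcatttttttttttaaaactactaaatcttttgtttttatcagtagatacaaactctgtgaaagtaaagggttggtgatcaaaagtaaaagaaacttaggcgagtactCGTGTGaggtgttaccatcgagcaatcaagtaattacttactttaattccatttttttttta
JAL22: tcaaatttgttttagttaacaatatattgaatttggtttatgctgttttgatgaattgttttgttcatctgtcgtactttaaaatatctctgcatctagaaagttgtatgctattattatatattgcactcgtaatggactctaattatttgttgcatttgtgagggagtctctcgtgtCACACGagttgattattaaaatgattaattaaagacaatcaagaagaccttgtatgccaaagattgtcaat
MLP43: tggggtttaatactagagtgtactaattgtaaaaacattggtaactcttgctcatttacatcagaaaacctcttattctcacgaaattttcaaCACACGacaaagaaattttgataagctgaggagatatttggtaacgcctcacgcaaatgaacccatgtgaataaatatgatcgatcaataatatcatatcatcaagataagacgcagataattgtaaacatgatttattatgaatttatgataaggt

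Runs of 3 members with both ratios at 0.25 or less are shown in contrast, since they held neither set of letters. AT5G57785 (chr5:23409716-23409965, minus strand) had the lowest mean of both ratios. AT1G05240 (chr1:1520028-1520277, plus strand) and AT1G05250 (chr1:1527361-1527610, minus strand) are neighbouring peroxidase genes that share nearly all their reads and are shown for that reason, though AT1G74150 fell further; 79 of the 250 bases, or 31.6%, are the same between them when set side by side without gaps.
AT5G57785: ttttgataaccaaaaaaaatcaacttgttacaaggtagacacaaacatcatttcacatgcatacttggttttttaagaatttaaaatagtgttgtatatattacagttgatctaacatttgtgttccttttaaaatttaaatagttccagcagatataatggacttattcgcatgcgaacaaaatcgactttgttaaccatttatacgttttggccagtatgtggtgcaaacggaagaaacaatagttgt
AT1G05240: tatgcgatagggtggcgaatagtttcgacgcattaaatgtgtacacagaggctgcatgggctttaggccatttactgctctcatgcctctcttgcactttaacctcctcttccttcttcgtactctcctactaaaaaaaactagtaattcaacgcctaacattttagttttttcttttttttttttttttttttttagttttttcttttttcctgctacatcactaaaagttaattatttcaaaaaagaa
AT1G05250: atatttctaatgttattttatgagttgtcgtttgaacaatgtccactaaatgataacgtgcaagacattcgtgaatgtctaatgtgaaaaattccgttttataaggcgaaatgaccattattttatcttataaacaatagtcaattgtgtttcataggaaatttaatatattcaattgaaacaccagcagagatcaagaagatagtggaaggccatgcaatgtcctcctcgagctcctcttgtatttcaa

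Searched on both strands from 250 bases before to 50 bases after the start, the BRRE was found in 8 of 61 members, or 13.1%, against 7.71% of 32708 genes in the annotation and 8.07% of the 13867 genes with 5 CPM or more in Col-0 and pifq. The G-box was found in 1 member, or 1.64%, against 6.92% and 8.91% of the same sets. CACATG, an E-box variant, was found in 9 members, or 14.8%, against 12.7% and 12.2%. Either the BRRE or the G-box was found in 9 members, or 14.8%, which is the share among genes with 5 CPM or more, also 14.8%. A BRRE and a G-box can overlap, since they share the letters CGTG. None of the 8 members with both ratios at 0.25 or less held a BRRE or a G-box in this window. A match is a description of letters and says nothing of binding, and the absence of a match covers this window alone.

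The ratios that chose the genes ran from 0.0176 to 0.499 for pifq;bzr1-1D over pifq, with a median of 0.41, and from 0.0175 to 0.488 for bzr1-1D over Col-0, with a median of 0.285. Among all genes at this level the medians were 0.959 and 0.983. A ratio of 0.5 or less was met by 1.64% of those genes in pifq;bzr1-1D over pifq and by 2.1% in bzr1-1D over Col-0, and by 0.473% in both. The 66 genes low in both were 28.8% of those low without the PIFs and 22.5% of those low with them. The members' libraries did not overlap in either comparison in 61 of 61 genes, which follows from how they were chosen. The share of all genes without such overlap is not given. By another measure, edgeR calls at adjusted p under 0.05, 27.8% and 26.1% of all tested genes were lower in these comparisons. Called in either direction were 55.9% and 56.8%. The fall was deeper with the PIFs present in 47 members and deeper without them in 14. Ratios of 0.25 or less were reached by 10 members without the PIFs and by 26 with them, and by 8 in both. Transcripts were lowest in pifq;bzr1-1D in 16 members and in bzr1-1D in 45, and highest in pifq in 30 and in Col-0 in 31.

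**Figure D1:**
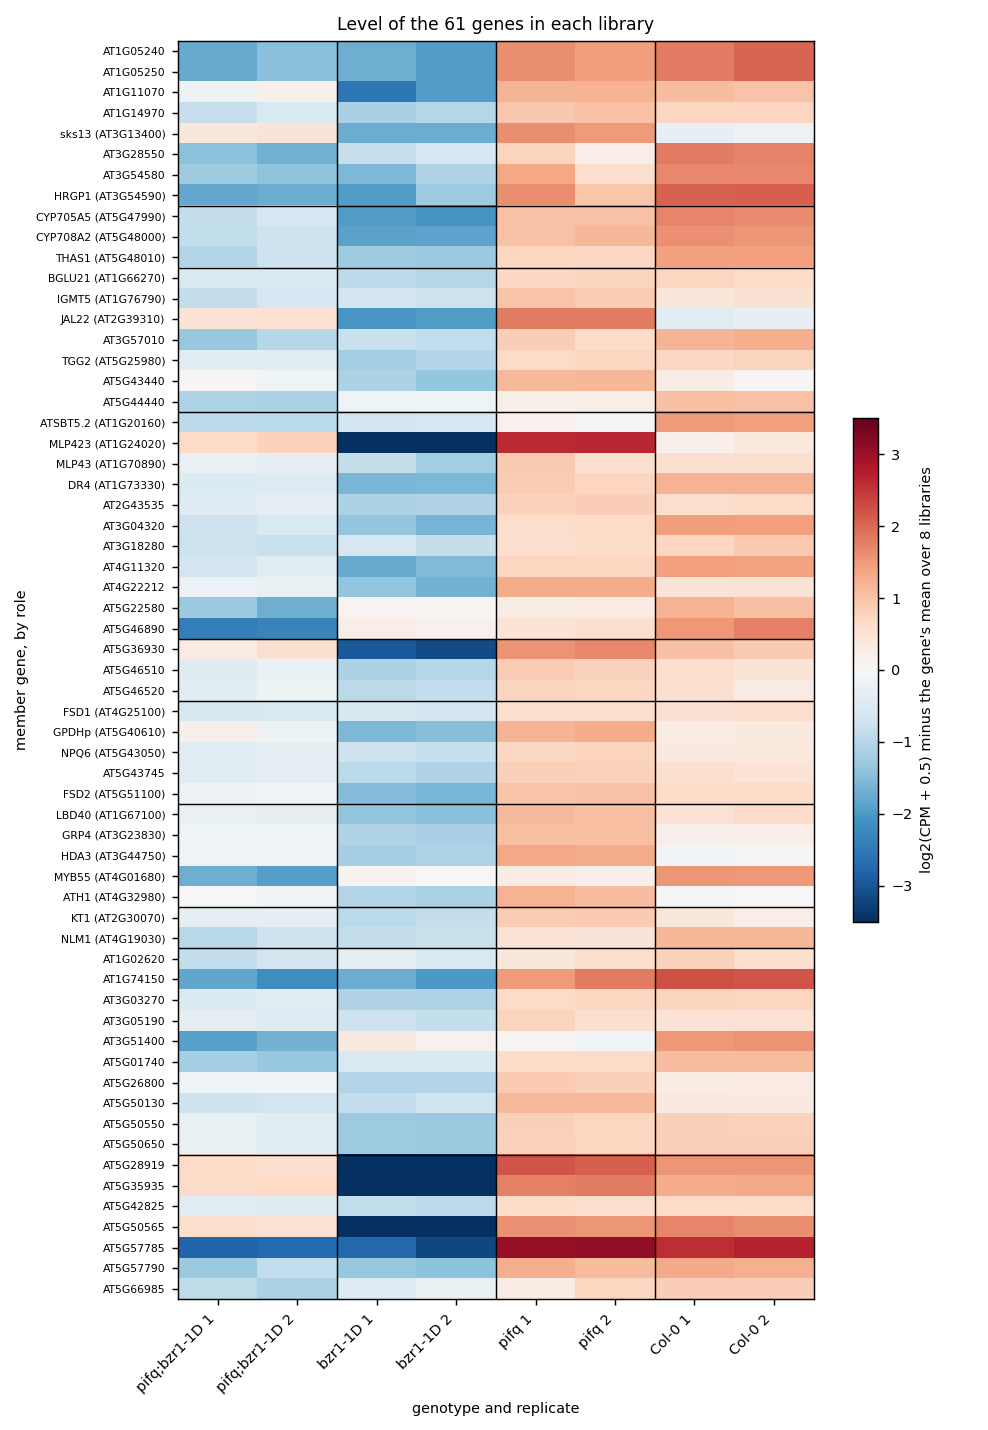
Level of each of the 61 genes (rows, grouped by role from wall proteins at the top to uncharacterised proteins at the bottom) in each of the 8 libraries (columns), as log2(CPM + 0.5) minus the gene's own mean over the libraries. Red is above and blue below that mean; a few rows, such as MLP423, AT5G28919 and AT5G50565, are dark blue in bzr1-1D and near or above their mean in pifq;bzr1-1D, and AT5G57785 is dark blue in both.

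**Figure D2:**
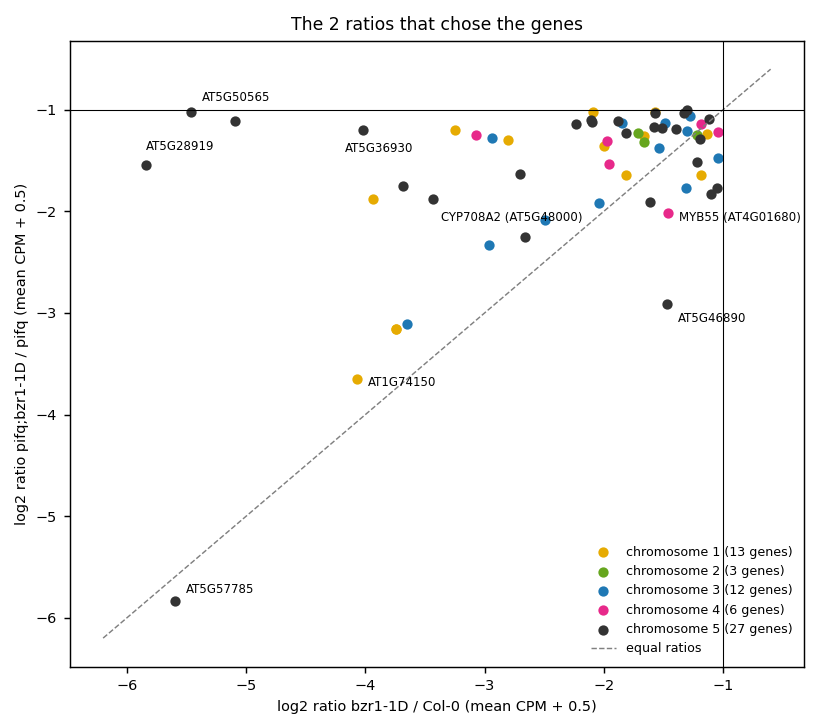
The 2 log2 ratios that chose the genes, bzr1-1D over Col-0 on the horizontal axis and pifq;bzr1-1D over pifq on the vertical axis, 1 point for each of 61 genes, coloured by chromosome, with lines at the threshold of the rule and a dashed line of equal ratios. 47 points lie above the dashed line, where the fall was deeper with the PIFs present, and 14 lie below it.

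The comparisons that the rule did not set are those of the PIFs, pifq against Col-0 and pifq;bzr1-1D against bzr1-1D. They use different libraries from each other, but all 8 libraries entered the rule, and on the log2 scale a gene's second PIF difference is the first plus the difference between its bzr1-1D effects. Values below are CPM, and log2 fold changes are from the edgeR fit with their standard error (SE) and n = 2 libraries per genotype. The spread between replicate libraries, as a chi-square per gene, was 5.5 in pifq;bzr1-1D, 2.17 in bzr1-1D, 1.72 in pifq and 2.47 in Col-0. The fit takes a gene's spread over all genotypes together. The SE and p-values of comparisons with pifq;bzr1-1D may therefore be too small. A gene is called at an edgeR quasi-likelihood adjusted p under 0.05 over all 21221 genes, and for the 2 comparisons of the rule no test of the members is read, while calls of other gene lists in them are given as edgeR counts. The fit scales libraries by TMM, whereas the CPM are scaled by library totals alone, and fitting on totals would move the median log2 fold change of all genes by -0.11 in pifq;bzr1-1D against bzr1-1D and by -0.06 in pifq against Col-0.

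Proteins of the cell wall, with AT1G14970, an O-fucosyltransferase family gene grouped with them, made up 8 members. Extensins and other hydroxyproline-rich glycoproteins form a cross-linked scaffold in the wall, and class III peroxidases are known to do the cross-linking; many of both are known from root hairs in Arabidopsis. AT3G28550, an extensin-like gene, had 13.7 and 11.4 CPM in pifq;bzr1-1D, 21.5 and 24.5 in bzr1-1D, 64.9 and 44.5 in pifq, and 136 and 127 in Col-0. No 2 genotypes overlapped, and the order ran from the double line at the bottom to the wild type at the top. AT3G54580, another extensin-like gene, had 9.38 and 8.26 CPM in pifq;bzr1-1D, 7.46 and 10.9 in bzr1-1D, 58.9 and 34.1 in pifq, and 75.4 and 74.2 in Col-0. Its neighbour on the chromosome, HRGP1, had 0.949 and 0.993 CPM in pifq;bzr1-1D, 0.782 and 1.56 in bzr1-1D, 15 and 9.33 in pifq, and 20.2 and 20.8 in Col-0. In both neighbours the lines with bzr1-1D overlapped each other and lay far below the lines without it, and in CPM the pifq libraries stood further apart than those of the other genotypes.

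AT1G05240 and AT1G05250 had equal counts in 7 of 8 libraries and differed by 1 read in the other, so they are 1 signal. AT1G05240 had 0.203 and 0.372 CPM in pifq;bzr1-1D, 0.234 and 0.123 in bzr1-1D, 6.95 and 6.13 in pifq, and 7.79 and 9.34 in Col-0. Of the 8 wall members, 2 were called higher and 5 lower in pifq than in Col-0, against 32% and 30.5% of all tested genes, and 3 were called higher and 1 lower in pifq;bzr1-1D than in bzr1-1D, against 33.8% and 31.6%. Both AT1G05240 and AT1G05250 are among the 8 and among the 5 called lower, so 1 signal is counted there more than once. Under DESeq2 these counts were 1 and 1 for pifq against Col-0 and 2 and 1 for pifq;bzr1-1D against bzr1-1D. HRGP1 fell in pifq against Col-0 (log2 fold change -0.68 ± 0.11 SE, adjusted p = 4.25e-06), but DESeq2 gave an adjusted p of 0.0927. The call of AT1G05240 (-0.30 ± 0.12, adjusted p = 0.0322) was lost under DESeq2 (adjusted p = 0.198) and without Col-0 replicate 2 or pifq replicate 2 (adjusted p = 0.269 and 0.227). AT3G28550 fell in both PIF comparisons, by 0.73 ± 0.13 on the log2 scale in pifq;bzr1-1D against bzr1-1D and by 1.2 ± 0.08 in pifq against Col-0.

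Unlike the extensins, sks13, a multicopper oxidase-like gene of the SKU5 family, was higher without the PIFs. It had 9.79 and 10.1 CPM in pifq;bzr1-1D, against 1.84 and 1.85 in bzr1-1D, and 23.4 and 21.3 in pifq, against 5.90 and 6.23 in Col-0. The log2 fold changes were 2.54 ± 0.14 and 1.96 ± 0.09. AT1G11070, a hydroxyproline-rich glycoprotein gene, had 2.03 and 2.73 CPM in pifq;bzr1-1D and 0 and 0.247 in bzr1-1D, while pifq had 6.05 and 6.21 and Col-0 had 5.64 and 5.21. It was called higher in pifq;bzr1-1D than in bzr1-1D (adjusted p = 1.4e-10), with 6 reads or fewer in bzr1-1D, and not called in pifq against Col-0 (0.23 ± 0.15, adjusted p = 0.172).

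Of the 12 root and root hair markers, none was called higher and 4 lower in pifq;bzr1-1D than in pifq (28.1% and 27.8% of all tested genes), and 2 higher and 5 lower in bzr1-1D than in Col-0 (30.8% and 26.1%). In the PIF comparisons, 5 were called higher and 2 lower in pifq;bzr1-1D than in bzr1-1D (33.8% and 31.6% of all tested genes). In pifq against Col-0, 4 were called higher and 3 lower (32% and 30.5%). Their summed level was 99.7 to 102 CPM in pifq;bzr1-1D, 101 to 107 in bzr1-1D, 122 to 123 in pifq and 106 to 107 in Col-0. SCR and SHR carried most of this sum, SCR with means of 43.7, 69.2, 46.8 and 69.9 CPM in the same order. SHR averaged 18.8, 24.7, 18.5 and 22.1 CPM. IRT1 averaged 29.8 CPM in pifq and 0.18 in Col-0, and FRO2 14.2 and 1.38. Both were also higher in pifq;bzr1-1D than in bzr1-1D. The sum is therefore no measure of the root hair genes. LRX1, a leucine-rich repeat extensin of root hairs, moved like the peroxidase pair, with 0.0678 and 0 CPM in pifq;bzr1-1D, 0 and 0.165 in bzr1-1D, 2.56 and 1.66 in pifq, and 3.75 and 3.70 in Col-0. RSL4, a regulator of root hair growth, had 0.915 and 1.43 CPM in pifq;bzr1-1D, 1.68 and 1.23 in bzr1-1D, 0.970 and 0.690 in pifq, and 1.11 and 1.27 in Col-0. LRX1 does not stand for the list. RHD6 was also lower with bzr1-1D, with means of 0.308, 0.18, 0.714 and 0.685 CPM in the same order. GL2 averaged 3.88, 4.47, 3.86 and 2.59 CPM and WER 2.17, 0.356, 1.99 and 0.607 in that order. Of 11 tested markers of endodermis and suberin, the root's inner barrier layer and its lipid polymer, none was called higher and 8 lower in pifq;bzr1-1D than in bzr1-1D, and 2 higher and 7 lower in pifq than in Col-0. In pifq;bzr1-1D against pifq, 4 were called higher and 1 lower, and in bzr1-1D against Col-0, 8 and 1. Their summed level was 139 to 140 CPM in pifq;bzr1-1D, 1010 to 1020 in bzr1-1D, 177 to 181 in pifq and 1200 to 1210 in Col-0. FAR1 carried most of this sum, with means of 93.8, 742, 146 and 1100 CPM in the same order. CASP1 averaged 11.2, 94.2, 9.21 and 31.6 CPM in that order. The sum was therefore lower in bzr1-1D than in Col-0 although 8 of the 11 tested markers were called higher there. The part of these root tissues in the members' values was not tested.

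The thalianol cluster is a run of neighbouring genes on chromosome 5 that makes a root triterpene. THAS1 cyclises the precursor to thalianol, CYP708A2 hydroxylates it and CYP705A5 desaturates the product. CYP705A5 had 2.68 and 3.29 CPM in pifq;bzr1-1D, 0.977 and 0.864 in bzr1-1D, 11.2 and 11.2 in pifq, and 18 and 17.6 in Col-0. CYP708A2 had 1.15 and 1.30 CPM in pifq;bzr1-1D, 0.313 and 0.329 in bzr1-1D, 5.55 and 6.17 in pifq, and 8.58 and 8.18 in Col-0. THAS1 had 1.19 and 1.55 CPM in pifq;bzr1-1D, 0.977 and 0.906 in bzr1-1D, 5.36 and 5.19 in pifq, and 8.87 and 8.81 in Col-0. All 3 genes had the same order of genotypes, with no overlap, from bzr1-1D at the bottom to Col-0 at the top.

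The PIF comparisons of the cluster had opposite signs. CYP705A5 was higher in pifq;bzr1-1D than in bzr1-1D by 1.76 ± 0.22 (adjusted p = 1.43e-08) and lower in pifq than in Col-0 by 0.60 ± 0.08 (log2 fold change -0.60, adjusted p = 1.21e-07). CYP708A2 gave 2.01 ± 0.35 (adjusted p = 6.62e-06) and -0.46 ± 0.12 (adjusted p = 0.000849, but 0.0509 under DESeq2). THAS1 gave 0.59 ± 0.27, which was not called (adjusted p = 0.0510), and -0.68 ± 0.12 (adjusted p = 5.36e-06). The next gene along, AT5G47980, an acyltransferase gene of the cluster that is no member, averaged 2.72 CPM in pifq;bzr1-1D, 0.321 in bzr1-1D, 1.11 in pifq and 1.42 in Col-0. It was lower with bzr1-1D where the PIFs were present (ratio 0.428) and higher where they were absent (ratio 2.0).

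Glucosinolates are sulfur compounds that myrosinases turn into defence products, and several members belong to this system or to other specialised metabolism. Of these 7 members, 4 were called higher and 2 lower in pifq against Col-0, against 32% and 30.5% of all tested genes, and 4 higher and 1 lower in pifq;bzr1-1D than in bzr1-1D, against 33.8% and 31.6%. JAL22, a jacalin-related lectin found with ER-body glucosidases, had 240 and 248 CPM in pifq;bzr1-1D, 42.0 and 44.6 in bzr1-1D, 608 and 612 in pifq, and 135 and 141 in Col-0. The replicates lay close together and no genotypes overlapped, and JAL22 was higher without the PIFs by 2.61 ± 0.04 with bzr1-1D (adjusted p = 6.45e-32) and by 2.21 ± 0.04 without it (adjusted p = 1.24e-31). Its relative JAL23, no member, averaged 5.85 CPM in pifq;bzr1-1D, 0.539 in bzr1-1D, 8.60 in pifq and 1.88 in Col-0.

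TGG2, a myrosinase, had 7.89 and 7.88 CPM in pifq;bzr1-1D, 4.18 and 4.82 in bzr1-1D, 17.2 and 17.9 in pifq, and 17.5 and 18.3 in Col-0. The PIF comparison of TGG2 was called with bzr1-1D (0.93 ± 0.12, adjusted p = 3.60e-08) and not without it (0.04 ± 0.07, adjusted p = 0.652). The other myrosinase gene, TGG1, no member, had ratios of 0.686 for pifq;bzr1-1D over pifq and 0.616 for bzr1-1D over Col-0. BGLU21, an ER-body beta-glucosidase, had 36.2 and 36.3 CPM in pifq;bzr1-1D, 27.2 and 25.8 in bzr1-1D, 86.6 and 88.5 in pifq, and 86.8 and 82.7 in Col-0. The call of BGLU21 in pifq against Col-0 (0.11, adjusted p = 0.0246) was lost under DESeq2, RLE size factors and library totals (adjusted p = 0.26, 0.0767 and 0.381). Its neighbour BGLU22 had ratios of 0.627 and 0.764 and is no member. IGMT5, a methyltransferase of indole glucosinolates, had ratios of 0.321 and 0.440.

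AT5G44440, a berberine bridge enzyme-like oxidase gene, was the most abundant member in Col-0. It had 265 and 259 CPM in pifq;bzr1-1D, 497 and 501 in bzr1-1D, 637 and 643 in pifq, and 1150 and 1130 in Col-0. The level was lower with bzr1-1D and lower again without the PIFs, with PIF differences of -0.82 ± 0.04 with bzr1-1D and -0.77 ± 0.03 without it. The difference between the bzr1-1D effects, without minus with the PIFs, was -0.05 ± 0.05 on the log2 scale.

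**Figure D3:**
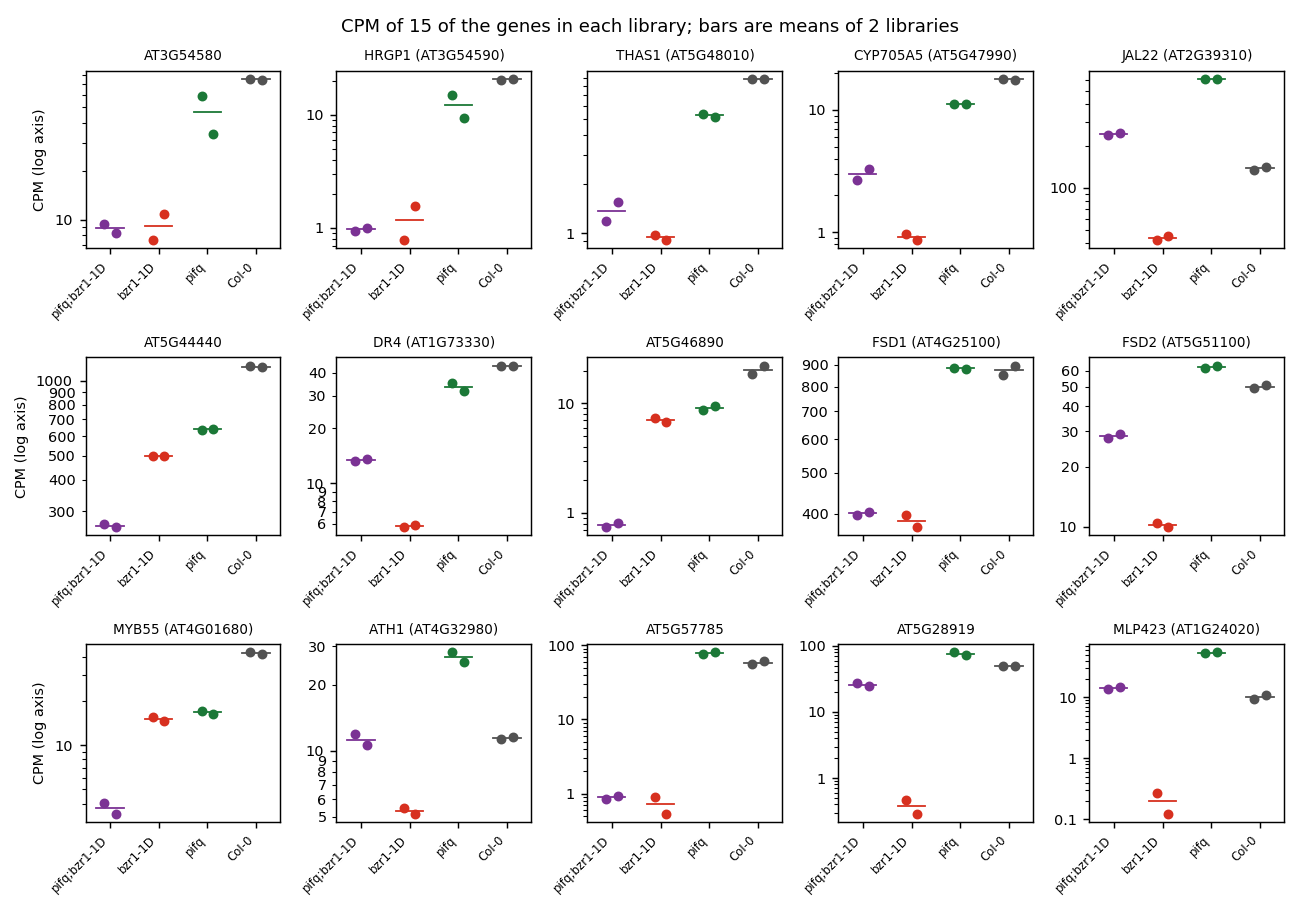
CPM of 15 of the genes in each of the 8 libraries on log axes that differ between panels, with points for libraries and bars for the mean of 2 libraries per genotype. In every panel pifq;bzr1-1D lies below pifq and bzr1-1D below Col-0, as the rule requires, while the height of pifq;bzr1-1D relative to bzr1-1D differs: in AT5G46890, MYB55 and AT5G44440 it is lower, and in JAL22, FSD2, MLP423 and AT5G28919 it is higher.

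Peptides, inhibitors and proteases, grouped with MLP-like proteins and a stress-responsive barrel protein, made up 11 members, many of a kind known from defence. In pifq against Col-0, 3 were called higher and 6 lower (32% and 30.5% of all tested genes), and in pifq;bzr1-1D against bzr1-1D, 7 higher and 3 lower (33.8% and 31.6%). MLP423, a major latex protein-like gene, had 13.7 and 15 CPM in pifq;bzr1-1D, 0.274 and 0.123 in bzr1-1D, 53.7 and 54.3 in pifq, and 9.42 and 10.9 in Col-0. It was near the detection limit in bzr1-1D and higher in pifq;bzr1-1D than in Col-0. AT5G46890, which encodes a lipid-transfer-like protein, showed another order, with 0.745 and 0.807 CPM in pifq;bzr1-1D, 7.35 and 6.79 in bzr1-1D, 8.73 and 9.45 in pifq, and 18.6 and 22.2 in Col-0. Its level was lowest in the double line, and its PIF differences were -3.08 ± 0.21 with bzr1-1D (adjusted p = 6.84e-15) and -1.08 ± 0.09 without it (adjusted p = 2.76e-12). AT5G22580, a stress-responsive barrel protein gene, followed the same order with -1.62 ± 0.16 and -0.86 ± 0.10.

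DR4, a drought-repressed gene of the Kunitz inhibitor family, had 13.2 and 13.5 CPM in pifq;bzr1-1D, 5.78 and 5.93 in bzr1-1D, 35.1 and 31.9 in pifq, and 43.9 and 43.9 in Col-0. AT3G04320, also a Kunitz inhibitor gene, had 5.52 and 6.46 CPM in pifq;bzr1-1D, 3.40 and 2.76 in bzr1-1D, 14.8 and 15.7 in pifq, and 27.2 and 26.6 in Col-0. AT4G11320, a papain-like cysteine protease gene, had 11 and 13.3 CPM in pifq;bzr1-1D, 4.81 and 5.72 in bzr1-1D, 29.8 and 29.7 in pifq, and 48.3 and 47.3 in Col-0. These 3 genes had the genotype order of the thalianol genes, and each was called in opposite directions in the PIF comparisons, higher in pifq;bzr1-1D than in bzr1-1D and lower in pifq than in Col-0. With CYP705A5 and CYP708A2 they are the 5 members called in opposite directions.

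The defensin-like gene AT4G22212 and the knottin gene AT2G43535 were instead called higher in both PIF comparisons, AT4G22212 by 1.53 ± 0.13 and 0.94 ± 0.07. ATSBT5.2, a subtilisin-like protease, had 12.8 and 12.5 CPM in pifq;bzr1-1D, 15.4 and 16 in bzr1-1D, 27.0 and 25.1 in pifq, and 69.4 and 67.7 in Col-0. It fell by 1.33 ± 0.05 on the log2 scale in pifq, while its call in pifq;bzr1-1D against bzr1-1D (-0.19 ± 0.08, adjusted p = 0.0318) was lost under DESeq2 (adjusted p = 0.0814) and without bzr1-1D replicate 2 or either pifq;bzr1-1D library (adjusted p = 0.0913 to 0.137).

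TIR-NBS-LRR proteins are immune receptors that recognise pathogen effectors inside the cell, and 3 of their genes were members. All 3 were called higher in both PIF comparisons, as were 33.8% of all tested genes in pifq;bzr1-1D against bzr1-1D and 32% in pifq against Col-0. AT5G36930 had 4.91 and 5.96 CPM in pifq;bzr1-1D, 0.0782 and 0 in bzr1-1D, 12.7 and 13.6 in pifq, and 8.69 and 7.74 in Col-0. Only 2 reads were counted in bzr1-1D, so the fitted change depends on the prior count; the ratio of summed rates was 132 for pifq;bzr1-1D over bzr1-1D (exact 95% counting interval 36.1 to 1090) and 0.00481 for bzr1-1D over Col-0 (0.000581 to 0.0175). The neighbours AT5G46510 and AT5G46520 fell less, with ratios of 0.443 and 0.489 without the PIFs and 0.335 and 0.399 with them.

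Superoxide dismutases turn superoxide into hydrogen peroxide, and the iron enzymes FSD1 and FSD2 were members with 3 plastid protein genes. FSD1, the form known to respond to copper supply, had 398 and 404 CPM in pifq;bzr1-1D, 397 and 372 in bzr1-1D, 885 and 881 in pifq, and 854 and 897 in Col-0. Both lines with bzr1-1D lay close to each other, with a called difference of 0.17 ± 0.04 between them (adjusted p = 0.000196) that fell to 0.06 with library totals in place of TMM scaling (adjusted p = 0.18), and the difference between both bzr1-1D effects was 0.10 ± 0.05. FSD2, a plastid form, had 27.6 and 28.9 CPM in pifq;bzr1-1D, 10.5 and 10 in bzr1-1D, 62.0 and 63.7 in pifq, and 49.3 and 50.8 in Col-0. FSD2 was higher without the PIFs by 1.57 ± 0.07 with bzr1-1D (adjusted p = 3.44e-19) and by 0.40 ± 0.05 without it (adjusted p = 4.51e-09).

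FSD3, which acts with FSD2 in plastid nucleoids and is no member, had ratios of 0.566 without the PIFs and 0.957 with them. GPDHp, a glycerol-3-phosphate dehydrogenase, had 9.32 and 7.26 CPM in pifq;bzr1-1D, 2.42 and 2.63 in bzr1-1D, 19.4 and 20.8 in pifq, and 9.86 and 10.4 in Col-0. Of these 5 members, 4 were called higher in pifq than in Col-0 (32% of all tested genes) and 5 in pifq;bzr1-1D than in bzr1-1D (33.8%), or 4 with library totals, and none was called lower.

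Regulators of transcription and RNA made up 5 members. ATH1, a BEL1-like homeodomain factor known to be raised by light, had 11.9 and 10.6 CPM in pifq;bzr1-1D, 5.47 and 5.15 in bzr1-1D, 28.1 and 25.5 in pifq, and 11.3 and 11.5 in Col-0. HDA3, a plant-specific histone deacetylase, had 21.5 and 21.9 CPM in pifq;bzr1-1D, 10.5 and 11 in bzr1-1D, 62.4 and 59.4 in pifq, and 22.4 and 22.9 in Col-0. In both genes pifq;bzr1-1D lay near Col-0, between a higher pifq and a lower bzr1-1D. GRP4, a glycine-rich RNA-binding protein gene, and LBD40, a LOB-domain gene, were also called higher in both PIF comparisons, GRP4 by 1.11 ± 0.09 and 0.94 ± 0.06 and LBD40 by 1.40 ± 0.14 and 0.60 ± 0.08.

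MYB55, an R2R3 MYB factor, went the other way. It had 4.07 and 3.41 CPM in pifq;bzr1-1D, 15.5 and 14.6 in bzr1-1D, 17.1 and 16.4 in pifq, and 42.8 and 41.6 in Col-0. The PIF differences of MYB55 were -1.86 ± 0.11 with bzr1-1D (adjusted p = 1.62e-16) and -1.27 ± 0.06 without it (adjusted p = 2.07e-18).

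KT1, a potassium transporter, had 20.2 and 19.9 CPM in pifq;bzr1-1D, 13.1 and 14.0 in bzr1-1D, 48.0 and 48.8 in pifq, and 34.1 and 30.2 in Col-0. NLM1, an aquaporin of the NIP kind, had 2.91 and 3.54 CPM in pifq;bzr1-1D, 3.24 and 3.33 in bzr1-1D, 8.96 and 8.56 in pifq, and 14.4 and 14.4 in Col-0. KT1 was called higher in both PIF comparisons, and NLM1 was called lower in pifq than in Col-0.

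Of 10 members with other annotations, AT1G74150, a kelch-repeat gene, fell most, with 0.305 and 0.124 CPM in pifq;bzr1-1D, 0.352 and 0.206 in bzr1-1D, 7.45 and 9.50 in pifq, and 12.7 and 12.5 in Col-0. Both lines with bzr1-1D were near the detection limit. AT3G51400, whose promoter holds the G-box above, had 1.36 and 1.74 CPM in pifq;bzr1-1D, 8.21 and 7.33 in bzr1-1D, 6.95 and 6.01 in pifq, and 19.5 and 20.5 in Col-0. Its PIF differences were -2.26 ± 0.16 with bzr1-1D (adjusted p = 5.83e-14) and -1.56 ± 0.09 without it (adjusted p = 4.57e-16). AT5G50130, whose promoter holds a BRRE, had 3.05 and 3.23 CPM in pifq;bzr1-1D, 2.74 and 3.13 in bzr1-1D, 12.5 and 12.4 in pifq, and 6.95 and 6.81 in Col-0. Both lines with bzr1-1D overlapped while pifq was above Col-0 (0.92 ± 0.10, adjusted p = 6.54e-10). AT3G03270, an adenine nucleotide hydrolase-like gene with a BRRE, had ratios of 0.456 without the PIFs and 0.277 with them. The WD40-repeat genes AT5G50550 and AT5G50650 are copies of each other with equal counts in 4 of 8 libraries, at most 11 reads apart elsewhere, and 250 of 250 promoter bases the same, so they too are 1 signal.

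Members annotated only as uncharacterized protein numbered 7, all on chromosome 5. AT3G51400 on chromosome 3, annotated as a hypothetical protein, was placed with the other annotations, so this trait depends on the grouping. AT5G57785 had 0.847 and 0.931 CPM in pifq;bzr1-1D, 0.899 and 0.535 in bzr1-1D, 76.8 and 79.9 in pifq, and 56.2 and 60.5 in Col-0. The ratios were 0.0176 and 0.0207, and the lines with bzr1-1D overlapped. Its neighbour AT5G57790 had ratios of 0.210 and 0.158. AT5G28919 had 27.1 and 24.8 CPM in pifq;bzr1-1D, 0.469 and 0.288 in bzr1-1D, 79.6 and 72.7 in pifq, and 49.9 and 49.4 in Col-0. AT5G35935 had 21.3 and 21.7 CPM in pifq;bzr1-1D, 0.586 and 0.412 in bzr1-1D, 46.0 and 47.8 in pifq, and 33.2 and 33.6 in Col-0. Both were near 0 in bzr1-1D and clearly read in pifq;bzr1-1D.

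AT5G50565 had 11.3 and 10.4 CPM in pifq;bzr1-1D, 0.0782 and 0.0412 in bzr1-1D, 22.9 and 22.2 in pifq, and 25 and 23.3 in Col-0. With 3 reads in bzr1-1D, its ratio of summed rates was 183 for pifq;bzr1-1D over bzr1-1D (exact 95% counting interval 62.2 to 890) and 0.00247 for bzr1-1D over Col-0 (0.000509 to 0.00724). AT5G50665, its near-identical copy, lay just outside the rule with a ratio of 0.519 for pifq;bzr1-1D over pifq, so reads of this pair are uncertain one by one. The models of AT5G28919 and AT5G50565 overlap other genes on the other strand, and since no strand setting is given, their reads cannot be told apart.

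Taking the PIF comparisons over all members, 38 of 61 were called higher and 9 lower in pifq;bzr1-1D than in bzr1-1D, or 62.3% and 14.8%, where 33.8% and 31.6% of all tested genes were (65.4% in either direction). The wider spread between the pifq;bzr1-1D libraries, given above, is a limit on all calls in this comparison. With library totals in place of TMM, 36 members were called higher and 10 lower in this comparison, where 26% and 39.9% of all tested genes were. In pifq against Col-0, 26 were called higher and 22 lower, or 42.6% and 36.1%, where 32% and 30.5% of all tested genes were (62.5% in either direction). The median log2 fold change of the members was 0.73 with bzr1-1D and 0.04 without it, against 0.02 and 0.01 over all tested genes. The shares among genes with 5 CPM or more were 39.0% higher and 31.9% lower with bzr1-1D, and 34.8% and 35.4% without it. Of the members called, 24 were higher by 2-fold or more and 4 lower with bzr1-1D, and 7 and 5 without it. The shares above are for calls of any size, and no share of all genes at 2-fold or more is given beside these counts.

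Across both comparisons, 23 members were called higher in each and 9 lower in each, 5 were called higher with bzr1-1D and lower without it, and none the other way. A further 10 were called higher with bzr1-1D alone, 3 were called higher and 8 lower without bzr1-1D alone, and 3 in neither. No share of all tested genes is given for these pairs of calls, so they are not shown to be particular to the members. A call in one comparison and not in the other does not show that they differ, and these differences were not tested. Since a deeper fall with the PIFs present and a higher level in pifq;bzr1-1D than in bzr1-1D are tied by arithmetic, the counts above and the count of 47 deeper falls are no independent evidence of each other.

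**Figure D4:**
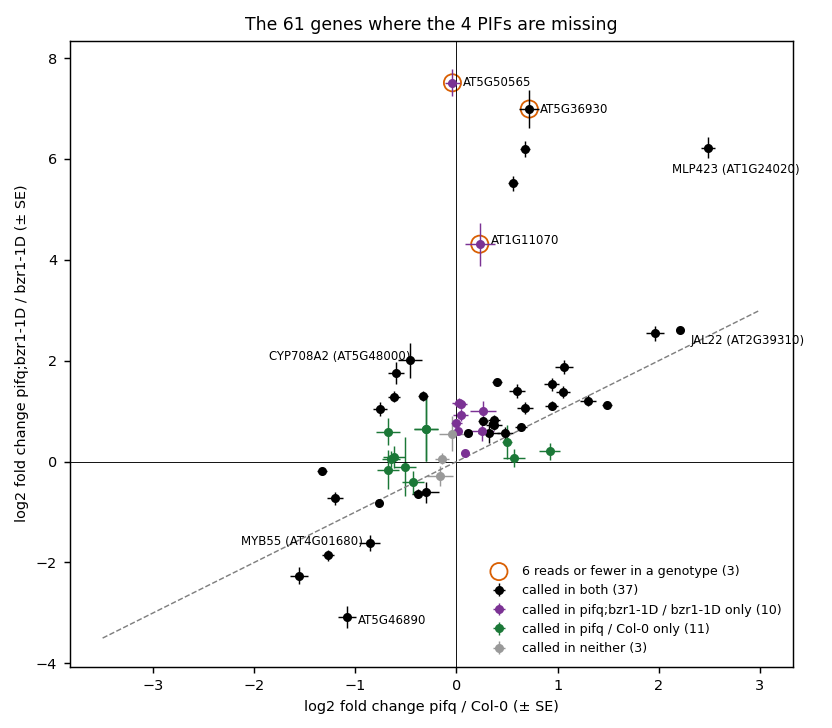
Log2 fold changes of the 61 genes where the 4 PIFs are missing, pifq over Col-0 on the horizontal axis and pifq;bzr1-1D over bzr1-1D on the vertical axis, with bars of 1 SE and colours for the edgeR calls; the dashed line marks equal values. Of the genes called in both, 23 lie at the upper right and 9 at the lower left, and rings mark 3 genes with 6 reads or fewer in a genotype, whose fitted values depend on the prior count.

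The differences between both bzr1-1D effects, without minus with the PIFs, are estimates with no test, since both effects chose the genes. Among genes with more than 3 reads in every genotype, the highest were AT5G28919 (5.52 ± 0.19), AT5G35935 (4.96 ± 0.17), AT1G11070 (4.08 ± 0.48) and MLP423 (3.72 ± 0.30), all much lower with bzr1-1D in the presence of the PIFs. The value of AT1G11070, with 0 and 6 reads in bzr1-1D, is not firm: it was 3.07 without bzr1-1D replicate 1 and 8.71 without bzr1-1D replicate 2. The lowest were AT5G46890 (-2.0 ± 0.25), AT5G22580 (-0.76 ± 0.19), AT3G51400 (-0.71 ± 0.21), AT5G50130 (-0.71 ± 0.19) and MYB55 (-0.59 ± 0.13), which fell further without the PIFs. AT5G57785 (-0.10 ± 0.34), KT1 (0.04 ± 0.10), AT5G44440 (-0.05 ± 0.05) and AT3G57010 (0.02 ± 0.27) had estimates within their SE of 0.

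The members were unevenly spread over the chromosomes, which the rule did not use. Chromosomes 1 to 5 held 13, 3, 12, 6 and 27 members, and chromosome 5 held 44.3% of them, against 23.6% of the 13868 genes with 5 CPM or more that have a chromosome in TAIR10.1. Members made up 0.827% of such genes on chromosome 5, against 0.357%, 0.143%, 0.433% and 0.286% on chromosomes 1 to 4. For genes 2-fold or more higher in both comparisons, chromosome 5 held 0.337% against 0.339% over all nuclear chromosomes. The stretch from AT5G40610 to AT5G51100, whose ends were set after the values were seen, held 17 members among 575 genes (2.96%), against 44 among 13293 elsewhere (0.331%). In the same stretch 0.870% of genes were 2-fold or more higher in both comparisons, against 0.316% elsewhere.

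Within the stretch, the members' ratios of pifq;bzr1-1D over pifq ran from 0.133 to 0.493 with a median of 0.441, and all genes there had a median of 0.945. The members there include the thalianol genes, FSD2, GPDHp, NPQ6, both neighbouring receptor genes and AT5G50565. Over the whole genome, 13 members had another member within 3 tested genes: AT1G05240 with AT1G05250, AT3G54580 with HRGP1, AT5G46510 with AT5G46520, the 3 thalianol genes, AT5G50550 with AT5G50565, and AT5G57785 with AT5G57790. Whether flanking segments of parental lines differ between the genotypes is not given in the labels, and the part of position in these values was not tested.

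**Figure D5:**
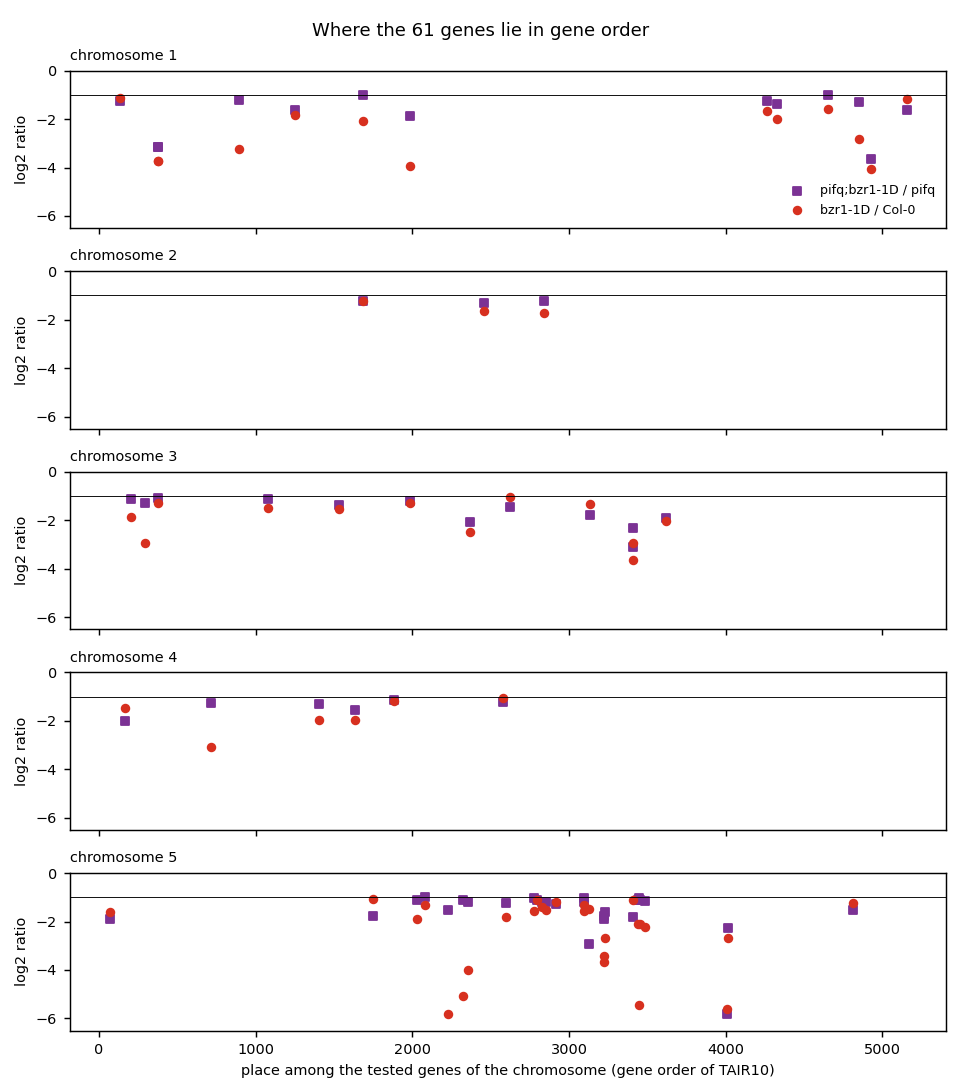
Place of each of the 61 genes among the tested genes of its chromosome (horizontal axis, gene order of TAIR10.1) against its log2 ratios, pifq;bzr1-1D over pifq as squares and bzr1-1D over Col-0 as circles, with a line at the threshold of the rule. Chromosome 5 carries 27 of the genes, 17 of them between AT5G40610 and AT5G51100, and several circles on chromosome 5 lie far below their squares.

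The members have other features that the rule did not use. Their median exon length was 1673 bases against 1883 among genes with 5 CPM or more, and 15 of 61 (24.6%) had a single exon against 11.8%. No symbol is given for 37 of them. The models of 13 overlap another gene, 10 on the other strand and 3 on the same strand, and their counts may hold reads of that gene. Of the families by symbol, 2 of 191 tested cytochromes P450, 2 of 39 BGLU genes, 2 of 14 MLP genes, 1 of 12 peroxidases (AT1G05250, while AT1G05240 is not in the family by symbol) and 1 of 79 MYB genes were members, and none of the UGT, GST, WRKY, NAC, ERF, ABC, NPF or NRT genes was. Members were 61 of all 21221 tested genes and 0.44% of the nuclear genes with 5 CPM or more. Few or no members would be looked for in families of these sizes, so these counts are not shown to be particular to the members.

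No gene of the pathway and defence lists was a member, but the rule itself barred the brassinosteroid synthesis genes. The other lists are short, and members were 0.44% of the nuclear genes with 5 CPM or more. Their lack of members is therefore not read as a result. Of 14 brassinosteroid signalling genes, 6 rose and 3 fell in pifq;bzr1-1D against pifq, 7 rose and 3 fell in bzr1-1D against Col-0, and none had either ratio at 0.5 or less. BES1, the closest homologue of BZR1, had 109 and 110 CPM in pifq;bzr1-1D, 46.1 and 45.4 in bzr1-1D, 88.2 and 88.3 in pifq, and 79.7 and 79.4 in Col-0, so it lay below Col-0 in bzr1-1D and above pifq in pifq;bzr1-1D. BZR1 itself had 44.9 and 46.5 CPM in pifq;bzr1-1D, 41.8 and 43.7 in bzr1-1D, 33.1 and 33.5 in pifq, and 39.0 and 40.9 in Col-0. Of 9 tested jasmonate and defence genes, 1 rose and 4 fell in pifq;bzr1-1D against pifq, and 2 rose and 3 fell in bzr1-1D against Col-0. Of 10 tested abscisic acid and drought genes, 6 were called higher and 3 lower in the first of these comparisons and 6 higher and 2 lower in the second. The shares of all tested genes given above apply to these lists too, and several counts lie near them.

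The genes left out by name give the scale. BR6OX2, which completes brassinosteroid synthesis, had ratios of 0.0158 for pifq;bzr1-1D over pifq and 0.0874 for bzr1-1D over Col-0, and DWF4, a hydroxylase early in the pathway, had 0.124 and 0.273. All 6 synthesis genes were called lower in both comparisons of bzr1-1D. Of all tested genes, 27.8% were called lower in pifq;bzr1-1D against pifq and 26.1% in bzr1-1D against Col-0. In these P450 genes of synthesis the median fall was deeper without the PIFs (median log2 fold change -2.94) than with them (-2.23). The chalcone synthase gene TT4 had ratios of 0.0478 and 0.365. Just inside the rule were AT5G26800 with a ratio of 0.4993, ATSBT5.2 with 0.4945, AT5G50565 with 0.4935, MLP43 with 0.4932 and AT5G42825 with 0.4891, each for pifq;bzr1-1D over pifq. Just outside were AT1G32690 with 0.5022, UCN with 0.5027, AT1G66800 with 0.5034 and AT5G51730 with 0.5106 in the same comparison, and AT5G12110 with 0.5108 for bzr1-1D over Col-0.

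The rule was also applied to parts of the data. On the replicate 1 libraries alone it found 61 genes and on the replicate 2 libraries alone 65, and 54 were found in both. The genes found on replicate 1 had median ratios in the replicate 2 libraries of 0.406 for pifq;bzr1-1D over pifq and 0.288 for bzr1-1D over Col-0, and their highest ratios there were 0.862 and 0.507. With means of 10 CPM or more 40 genes remained, with 1 CPM or more there were 118, and with a ratio of 0.33 or less in both comparisons 15. With TMM-scaled library sizes 54 of the 61 remained and no gene joined, with 2 CPM added 45 remained, and with 0.1 CPM added all 61 remained and 6 joined.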

How the data were processed

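The authors deposited raw counts per gene in a separate file for each library. TopHat, HTSeq and the TAIR9 build are named per the submitters' processing notes, and RNA extraction and TruSeq libraries per the labels' protocols. The sources used here give no tool versions, no strand setting and no handling of multiply mapped reads. Reads without a gene (2.68% to 4.27%) and ambiguous reads (1.95% to 2.08%) stayed out of totals and tests. Names, gene order and promoters came from RefSeq's TAIR10.1, which held 32709 gene codes and all 61 members.

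All 8 libraries entered 1 edgeR 4.0.16 fit (R 4.3.3, limma 3.58.1) with TMM, filterByExpr and 4 residual degrees of freedom, and genes were tested by quasi-likelihood. P-values were adjusted by Benjamini-Hochberg over 21221 genes. The SE was obtained from the fold change and F. CPM in the text were scaled by the sum of gene counts, not by TMM. DESeq2 1.42.0 was an alternative. The fit was tested on simulated data with the same spread in all genotypes, which does not cover the wider spread between the pifq;bzr1-1D libraries.

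The members and lists were chosen with earlier results of these data known. Named members had the highest levels, lowest ratios, extreme PIF fold changes or extreme differences between bzr1-1D effects, belonged to a symbol family, or lay next to the threshold (36 genes). Other genes, the role groups and the neighbours of members were chosen after their values were seen.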

Additional observations from a re-analysis of the deposited data

Results flagged for a closer look

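For 6 members every pifq library lay below every Col-0 library while every pifq;bzr1-1D library lay above every bzr1-1D library, after TMM scaling, so the PIF comparison had opposite signs with and without bzr1-1D. The difference itself was not tested, and the share of all genes with this pattern is not given. In log2 fold change, pifq;bzr1-1D against bzr1-1D and pifq against Col-0 gave 1.30 and -0.33 for DR4 (AT1G73330), 1.04 and -0.76 for AT3G04320, and 1.29 and -0.62 for AT4G11320. The same pair of comparisons gave 1.76 and -0.60 for CYP705A5 (AT5G47990), 2.01 and -0.46 for CYP708A2 (AT5G48000), and 0.59 and -0.68 for THAS1 (AT5G48010).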

How the results depend on the processing

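With 2 libraries per genotype and 4 residual degrees of freedom, members with few reads have wide errors. Under DESeq2, RLE size factors, no filter on low counts, a fit of only the 4 libraries compared, or counting read-sharing genes once, the calls in pifq;bzr1-1D against bzr1-1D were 37 to 38 members higher and 8 to 9 lower, and those in pifq against Col-0 were 24 to 26 higher and 16 to 23 lower. Library totals without TMM, added after seeing the data, gave 36, 10, 25 and 23 in the same order and ended the calls of AT1G14970 and FSD1 in the first comparison and of BGLU21 in the second. Leaving out 1 library gave 37 to 38, 7 to 9, 25 to 26 and 19 to 22 in the same order. It gave 59 to 66 members and 13 to 15 with a deeper fall without the PIFs. The rule found 40 members at 10 CPM or more, 118 at 1 CPM or more 15 at a ratio of 0.33 or less, 54 with TMM-scaled library sizes, 45 with 2 CPM added and 67 with 0.1 CPM added. On chromosomes 2, 3 and 4 alone, an alternative added after seeing the data, 13 rose and 3 fell in the first comparison, 8 and 9 in the second, and 5 fell further without the PIFs, with fewer members counted. With the replicate number as a block, the calls were 38, 9, 27 and 22, and MLP43 joined in pifq against Col-0 (AT1G70890, adjusted p = 0.0499). Same-numbered libraries of different genotypes shared only a number (r of -0.0271 to 0.0428). Fold changes that turned sign were not called in either setting, and the cause was not tested. In pifq against Col-0, DESeq2 and RLE gave -0.01 for AT5G42825 and -0.01 for AT5G50650, and library totals gave -0.05 for both, -0.03 for AT5G50550 and -0.02 for TGG2. Leaving out 1 library gave ranges in pifq against Col-0 of 0.0 to 0.02 for AT5G42825, 0.0 to 0.04 for AT5G50650, -0.05 to 0.04 for AT3G03270, 0.0 to 0.08 for TGG2 (AT5G25980), -0.08 to 0.01 for AT5G50565 and -0.14 to 0.05 for AT5G57790. In pifq;bzr1-1D against bzr1-1D the ranges were -1.04 to 0.33 for AT1G74150, -0.05 to 0.25 for IGMT5 (AT1G76790), -0.06 to 0.2 for AT3G18280, -0.17 to 0.38 for AT3G54580, -0.58 to 0.42 for HRGP1 (AT3G54590) and -0.06 to 0.22 for NLM1 (AT4G19030). There, library totals gave -0.04 for IGMT5, -0.05 for AT3G18280, -0.03 for AT3G54580 and -0.07 for NLM1.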
